A study of Mus musculus with 15 samples.

Results

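The insulin signalling core genes are 10 genes of the route by which insulin makes fat cells take up glucose: Insr, Irs1, Irs2, Pik3r1, Pik3ca, Akt1, Akt2, Tbc1d4, Slc2a4 and Ptpn1. They were chosen by name, each as the brightest probe set that carries its symbol alone, and all 10 were found among the 19938 named genes of the array. The tissue was the gonadal white fat pad of male C57BL6/J mice, 7 wild type and 8 Sfrp5 KO, with 1 array per mouse. The knockout allele, Q27Stop, puts a stop codon into the coding sequence of Sfrp5, a secreted protein of adipocytes that binds Wnt ligands. Mice of both genotypes ate a high-fat diet for 8 weeks from 4 weeks of age and were 12 weeks old when the tissue was taken, so no lean mice enter the comparison. The tissue was taken without a stated insulin stimulus, and the values are RNA levels, which say nothing of phosphorylation or of where a protein lies in the cell.

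Insulin binds its receptor on the cell surface, a tyrosine kinase that phosphorylates the adaptor proteins IRS1 and IRS2. The adaptors recruit PI 3-kinase, whose lipid product activates AKT. In adipocytes AKT2 phosphorylates TBC1D4, also called AS160, which releases vesicles that carry the glucose transporter GLUT4, the product of Slc2a4, to the surface. In obesity and insulin resistance GLUT4 and IRS1 are known to be reduced in fat.

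RefSeq promoters of the GRCm38.p6 build were found for 8 of the 10 genes, and those of Irs1, Irs2, Akt2 and Tbc1d4 are shown because the first pair, which are paralogs, share a close pair of matches and the second pair varied together between mice. Each run is the 250 bases before the start site, read 5′ to 3′ on the gene's strand. Capitals mark matches on either strand to the FoxO core GTAAACA, the insulin response core CAAAACA, the Sp1 box GGGCGG, the E-box CACGTG, the CCAAT box or the TATA box TATAAA. The Irs1 window is chr1:82291440-82291689 on the minus strand, the Irs2 window chr8:11008930-11009179 on the minus strand, the Akt2 window chr7:27591302-27591551 on the plus strand (the first of 4 starts) and the Tbc1d4 window chr14:101609192-101609441 on the minus strand.
Irs1: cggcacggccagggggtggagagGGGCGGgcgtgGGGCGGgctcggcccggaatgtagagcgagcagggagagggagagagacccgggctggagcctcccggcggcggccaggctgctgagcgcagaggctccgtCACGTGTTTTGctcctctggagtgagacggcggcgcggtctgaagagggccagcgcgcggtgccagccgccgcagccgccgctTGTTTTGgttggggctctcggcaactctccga
Irs2: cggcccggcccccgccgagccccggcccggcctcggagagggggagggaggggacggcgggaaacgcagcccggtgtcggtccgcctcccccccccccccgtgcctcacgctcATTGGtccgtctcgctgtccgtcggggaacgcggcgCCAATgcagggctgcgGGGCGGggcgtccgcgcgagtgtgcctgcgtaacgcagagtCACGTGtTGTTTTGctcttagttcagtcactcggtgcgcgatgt
Akt2: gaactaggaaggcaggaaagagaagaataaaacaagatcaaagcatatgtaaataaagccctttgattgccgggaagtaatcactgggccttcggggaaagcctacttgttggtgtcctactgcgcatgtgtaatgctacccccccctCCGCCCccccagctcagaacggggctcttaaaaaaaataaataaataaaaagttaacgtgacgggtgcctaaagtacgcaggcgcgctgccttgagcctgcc
Tbc1d4: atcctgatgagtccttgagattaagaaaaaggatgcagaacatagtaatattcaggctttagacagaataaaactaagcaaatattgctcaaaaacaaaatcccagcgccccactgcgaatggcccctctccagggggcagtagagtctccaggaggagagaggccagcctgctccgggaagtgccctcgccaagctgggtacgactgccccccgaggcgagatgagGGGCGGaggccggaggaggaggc

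Both adaptor genes held an E-box followed closely by TGTTTTG, the reverse complement of CAAAACA. Counting the base before the start as -1, the E-box of Irs1 began at -115 and TGTTTTG at -111, so that they shared 2 bases, and another TGTTTTG began at -32. In Irs2 they began at -44 and -37 and did not overlap. Of 32851 RefSeq promoters, 5.56% held CAAAACA and 6.02% held CACGTG on either strand. An E-box with TGTTTTG beginning 4 to 10 bases after its first base, a spacing set after the letters were seen, stood in 7 of them, those of Irs1, Irs2, Irs4, Klf11, Pcbp1, Pyroxd1 and 1700019P21Rik. The Akt2 and Tbc1d4 windows held 1 Sp1 box each, a match that 32.7% of promoters had. Among the 13 promoters of the 8 genes the FoxO core was found only at start 1 of Akt1, where 3.17% of all RefSeq promoters had it. A match describes letters and does not show a factor's binding.

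Array medians lay between 6.99 and 7.07 on the log2 scale. The mean log2 level of Sfrp5 itself was 7.92 in the wild-type mice (SD 0.24, n = 7) and 6.69 in the knockouts (SD 0.40, n = 8), and their ranges did not overlap (log2 difference -1.23, SE 0.16, limma adjusted p = 0.0200); that call was lost without any 1 of 7 of the arrays, where the adjusted p ranged up to 0.0670. All 14 measured adipocyte markers were above a log2 level of 6.24, the 33rd percentile of mean level, in every array. Epididymis markers averaged 5.73 to 7.26 except for 10.34 in knockout replicate 2 and a value of 7.93 in wild-type replicate 4. Macrophage markers averaged 8.54 to 9.07 except for 9.74 in knockout replicate 8 and a value of 9.33 in wild-type replicate 2. In the submitters' array descriptions every wild-type position precedes every knockout position, so position and genotype cannot be told apart.

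None of the 10 insulin signalling genes differed between Sfrp5 KO and wild-type fat past the threshold. Slc2a4, the gene of GLUT4, was level in the 2 genotypes to within 0.01 on the log2 scale, and the widest differences were those of Akt2, higher by 0.15, and Pik3ca, lower by 0.14, neither past the threshold. Beside the 0 of 10 genes that passed, 0.0337% of all 35557 probe sets passed limma's Benjamini-Hochberg threshold of 0.05, 0.0281% higher and 0.00562% lower in the knockout. At an unadjusted limma p below 0.05 there were 0 of the 10 genes, against 9.97% of all probe sets and 1333 of the 19938 named genes. The genes split evenly, 5 higher and 5 lower in the knockout, with a median log2 difference of -0.0001, beside a median of -0.0075 over all probe sets. The median size of the difference was 0.06 for the 10 genes and 0.06 for all named genes.

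The receptor gene Insr had a lowest, median and highest log2 level of 11.55, 11.70 and 11.88 in wild-type arrays and of 11.50, 11.83 and 11.99 in knockout arrays. The wild-type values lay inside the knockout range. Taken as knockout minus wild type, here and throughout, the log2 difference came to 0.06 (SE 0.08), with a 95% interval from -0.11 to 0.23 and a limma adjusted p of 0.872. Read as a fold, this interval runs from 0.925 to 1.17 times the wild-type level, and like the others below it is not widened for the number of genes. A second probe set of Insr gave 9.64 in both genotypes, with a difference of 0.00 and an interval from -0.17 to 0.17.

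Irs1, the adaptor that couples the receptor to PI 3-kinase in fat and muscle, ranged widely between mice on its brightest probe set. There its log2 level ran from 8.94 through a median of 9.26 to 9.70 in wild type and from 8.61 through 9.25 to 9.57 in the knockout, a 2.13-fold spread over the 15 arrays. On that probe set knockout replicates 7 and 8 were the lowest of all, at 8.74 and 8.61, and the other 6 knockout arrays lay inside the wild-type range. The log2 difference was -0.12 (SE 0.16; interval -0.46 to 0.22; limma adjusted p = 0.873). Without knockout replicates 7 and 8 it was 0.05. On the second Irs1 probe set the spread was 1.53-fold, with wild-type values of 7.87 to 8.48 and knockout values of 7.95 to 8.32. There wild-type replicates 7 and 2 were lowest, at 7.87 and 7.91, knockout replicate 8 stood at 8.06, and every knockout array lay inside the wild-type range. In the array descriptions a number of unstated meaning falls within the wild-type range for knockout replicates 7 and 8 and below it for the other 6 knockouts.

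Irs2, the paralog of Irs1 that dominates in liver, ran from 7.59 to 8.06 in wild type (median 7.84) and from 7.38 to 8.05 in the knockout (median 7.84). The log2 difference was -0.04 (SE 0.11; interval -0.26 to 0.18; limma adjusted p = 0.943). Knockout replicate 7 was the lowest array for Irs2, whereas knockout replicate 8, the lowest on the brightest Irs1 probe set, was the highest of the knockouts for Irs2.

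Pik3r1, the gene of the p85 alpha regulatory subunit of PI 3-kinase, ran from 10.64 to 11.11 in wild type (median 10.82) and from 10.56 to 11.25 in the knockout (median 10.89). Pik3ca, the gene of the catalytic subunit p110 alpha, ran from 9.25 to 9.53 in wild type (median 9.49) and from 9.15 to 9.58 in the knockout (median 9.35). The wild-type values of Pik3ca were close together apart from replicate 4, the lowest; 1 of 8 knockout arrays, replicate 3, exceeded the wild-type mean. The log2 differences were 0.06 (SE 0.10; interval -0.15 to 0.27; limma adjusted p = 0.901) for Pik3r1 and -0.14 (SE 0.07; interval -0.28 to 0.01; limma adjusted p = 0.527) for Pik3ca. For Pik3ca the difference was -0.08 without knockout replicates 7 and 8, and -0.30 with these as the only knockout arrays.

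Akt1, the broadly expressed AKT kinase, ran from 7.52 to 8.07 in wild type (median 7.79) and from 7.64 to 8.05 in the knockout (median 7.80), which differ by -0.01 (SE 0.08; interval -0.18 to 0.17; limma adjusted p = 0.990). Akt2, the form that carries the insulin signal to GLUT4 in adipocytes, ran from 10.83 through 11.07 to 11.30 in wild type and from 10.96 through 11.21 to 11.51 in the knockout. The ranges overlapped over most of their length, and 6 of 8 knockout arrays exceeded the average of wild type. The log2 difference of Akt2 was 0.15 (SE 0.09; interval -0.04 to 0.33; limma adjusted p = 0.627). A second Akt2 probe set gave 0.17 (SE 0.08; interval -0.0040 to 0.35; limma adjusted p = 0.518), and 7 of 8 knockouts exceeded the average of wild type. Read as a fold, the interval of the second probe set reaches 1.27 times the wild-type level.

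Tbc1d4, the Rab GTPase-activating protein that holds GLUT4 vesicles back, ran from 8.11 to 8.55 in wild type (median 8.46) and from 8.24 to 8.73 in the knockout (median 8.48). Its log2 difference was 0.08 (SE 0.08; interval -0.08 to 0.24; limma adjusted p = 0.809). Slc2a4 ran from 8.13 through 8.45 to 8.77 in wild type and from 8.23 through 8.52 to 8.72 in the knockout, so every knockout array lay inside the wild-type range. The log2 difference of Slc2a4 was 0.01 (SE 0.10; interval -0.21 to 0.22; limma adjusted p = 0.992), and in folds the interval runs from 0.865 to 1.17. The array number limits how small a difference could be seen. Its sign turned in 11 other settings.

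Ptpn1, the gene of the tyrosine phosphatase PTP1B that dephosphorylates the insulin receptor, ran from 7.92 to 8.38 in wild type (median 8.09) and from 7.58 to 8.64 in the knockout (median 8.09). The knockout SD was 0.32 against 0.15 in wild type, with replicates 4 and 8 at the ends; whether the spreads differ was not tested. The log2 difference was -0.01 (SE 0.13; interval -0.29 to 0.26; limma adjusted p = 0.983).

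**Figure D1:**
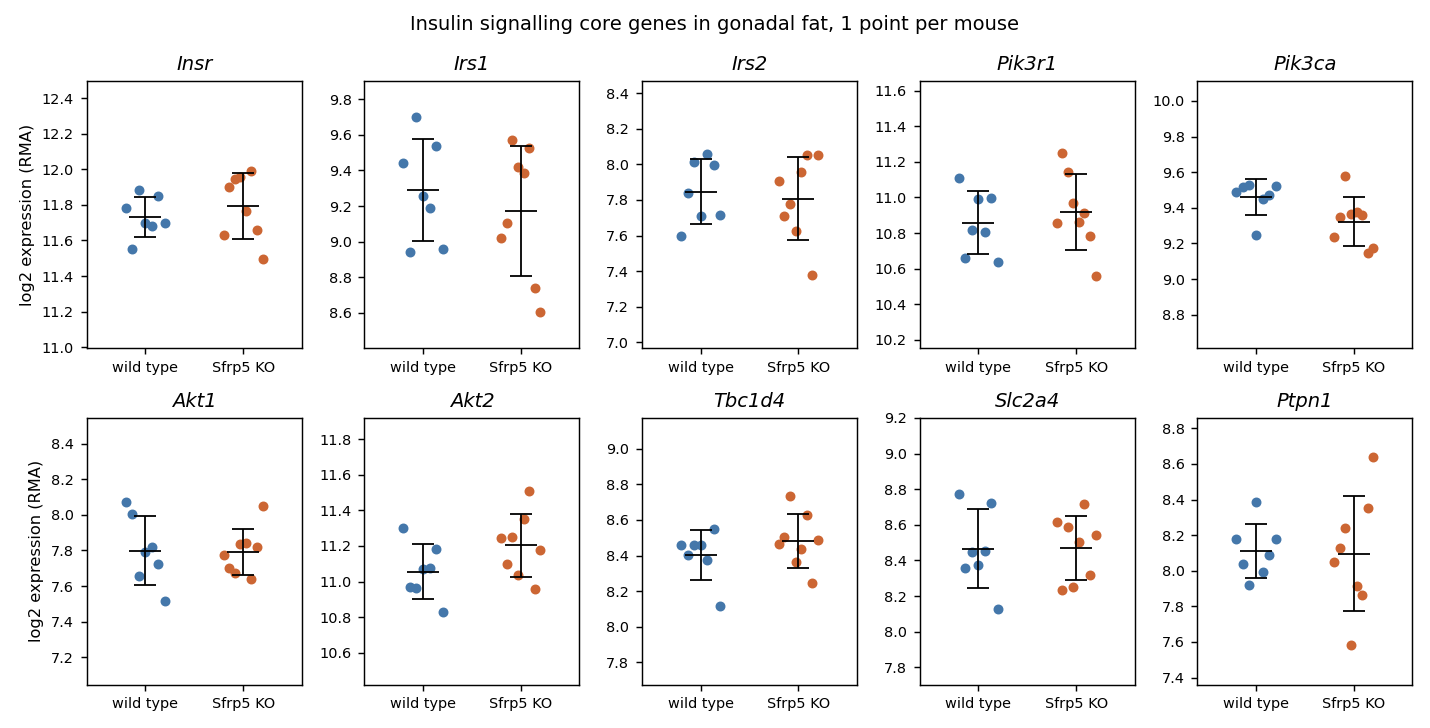
Deposited log2 expression of the 10 genes by genotype, 1 point per mouse (7 wild type, 8 Sfrp5 KO), each panel spanning the same 1.5 log2 units; the long tick is the mean and the bars are 1 SD. The genotypes overlap in every panel, and the 2 lowest Irs1 points, at 8.74 and 8.61, are knockout replicates 7 and 8.

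**Figure D2:**
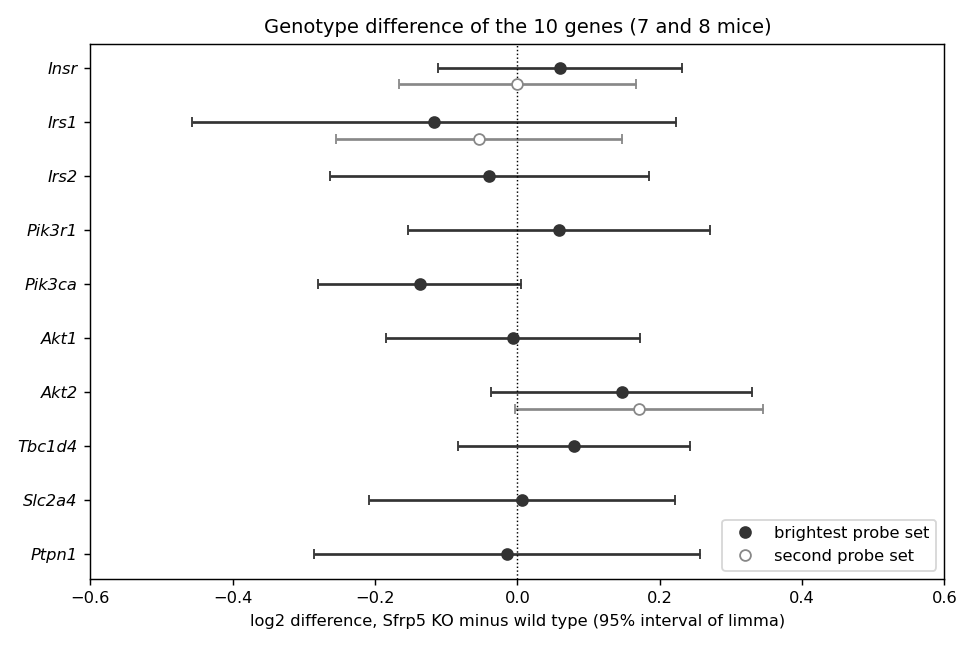
Log2 difference, Sfrp5 KO minus wild type, with limma's 95% interval for the brightest probe set of each gene (filled) and the second probe set of Insr, Irs1 and Akt2 (open). Every interval includes 0; that of Irs1 is the widest, from -0.46 to 0.22.

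For Irs1 and Akt2 the brightest probe set carries a doubt about what it measures. Probe sets on this array are numbered along the chromosomes, and of the 20 named probe sets nearest in number to the brightest one of Akt2 (10374364, between Vstm2a and Egfr), 19 belong to genes of chromosome 11 and 0 to genes of chromosome 7, where Akt2 lies. The second Akt2 probe set (10551393) had 20 of 20 neighbours on chromosome 7. Over the 15 arrays the 2 Akt2 probe sets correlated at 0.89, so both are given beside each other. The brightest Irs1 probe set (10347792) had 19 of 20 neighbours on chromosome 1, the chromosome of Irs1, but 19 of these 20 genes lie on the plus strand and 0 on the minus strand, whereas Irs1 lies on the minus strand. Around the second Irs1 probe set (10356084) 15 neighbours lay on the minus strand and 3 on the plus strand. The 2 Irs1 probe sets correlated at 0.68, and the second differed by -0.05 on the log2 scale (SE 0.09; limma adjusted p = 0.903). For Insr both probe sets had all 19 neighbours on chromosome 8, and they correlated at 0.85.

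The levels of some pairs of the genes varied together between mice. On the brightest probe sets the closest were Insr with Irs1, the receptor and its adaptor, and Akt2 with Slc2a4, the kinase and the transporter. There, of the 45 pairs of genes, 5 passed a permutation test of Pearson's r over 15 arrays with Benjamini-Hochberg adjustment. Each of them was positive, and 3 pairs passed with Spearman's rho. The order depended on the probe set. With the second probe sets of Insr, Irs1 and Akt2, r was 0.78 for Akt2 with Slc2a4. It was then 0.73 for Irs1 with Slc2a4 and 0.69 for Insr with Irs1.

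Akt2 and Slc2a4 correlated at r = 0.80 (rho = 0.80, permutation p = 0.00043 and 0.00054, adjusted p = 0.00967 and 0.0121). Within the genotypes r was 0.94 over the 7 wild-type and 0.84 over the 8 knockout mice, and 0.73 without wild-type replicates 1 and 7, the farthest from the median of Slc2a4. With the second Akt2 probe set r was 0.78 (permutation adjusted p = 0.0238). Of the 19938 named genes, Slc2a4 ranked 13th in correlation with Akt2, so that 0.0652% were as close, while Akt2 ranked 91st for Slc2a4. Wild-type replicate 7 was lowest in both, and knockout replicate 6 was highest in Akt2 and the highest knockout in Slc2a4.

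Tbc1d4 joined both of them less closely, at r = 0.72 with Akt2 (rho = 0.65, permutation adjusted p = 0.0379 and 0.108) and r = 0.67 with Slc2a4 (rho = 0.60, permutation adjusted p = 0.0440 and 0.153). Without the 2 farthest arrays, among them wild-type replicate 7 in each case, these were 0.68 and 0.62. Wild-type replicate 7, at 8.11, was the lowest array for Tbc1d4.

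Insr and Irs1 correlated at r = 0.81 (rho = 0.80, permutation p = 0.00028 and 0.00054, adjusted p = 0.00967 and 0.0121). The correlation was 0.92 within wild type and 0.88 within the knockout, and 0.75 without knockout replicates 7 and 8, the farthest in Irs1. With the second probe set of both genes it was 0.69 (permutation adjusted p = 0.0550). Insr and Pik3r1 correlated at r = 0.71 (rho = 0.72, permutation adjusted p = 0.0379 and 0.0477), with 0.53 within wild type, 0.78 within the knockout and 0.60 without knockout replicates 2 and 8. With the second Insr probe set it was 0.55 (permutation adjusted p = 0.181). Irs1 and Pik3r1 correlated at 0.58, which did not pass (permutation adjusted p = 0.120), except without wild-type replicate 4 and knockout replicate 2, the arrays with the most epididymis signal (0.76, permutation adjusted p = 0.0328).

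Over the 15 mice the paralogs, and the subunits of PI 3-kinase, did not pass as pairs. Irs1 and Irs2 correlated at r = 0.23 (permutation adjusted p = 0.644), Akt1 and Akt2 at 0.14 (permutation adjusted p = 0.748), and the PI 3-kinase subunits Pik3r1 and Pik3ca at 0.19 (permutation adjusted p = 0.699). Within wild type these were 0.31, 0.65 and -0.44, and within the knockout 0.17, -0.36 and 0.72, so that for the AKT genes and for the subunits the pooled value joins opposite signs; the difference between genotypes was not tested. Ptpn1 ran against Insr and Irs1, at r = -0.58 and -0.59, without passing (permutation adjusted p = 0.119 for both). Within wild type those were -0.20 and -0.26, and within the knockout -0.69 and -0.73; the difference between genotypes was not tested. Without knockout replicates 4 and 8 they were -0.26 and -0.41.

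The calls depended on a few mice. With either knockout replicates 7 and 8 or wild-type replicate 2 and knockout replicate 8 left out, none of the 45 pairs passed, although r stayed at 0.79 and 0.80 for Akt2 with Slc2a4 (permutation adjusted p = 0.0657 and 0.0513) and at 0.75 and 0.71 for Insr with Irs1 (permutation adjusted p = 0.105 and 0.0784). With values centred on each genotype's mean, and after quantile normalization, these 2 pairs passed and the other 3 did not.

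Markers of other cell types were set beside the genes, since bulk RNA from a fat pad mixes cells, and fewer cells of a type cannot be told apart from less RNA per cell. Among 70 pairs of a gene and a marker list, 5 passed the permutation test with Benjamini-Hochberg adjustment. Slc2a4 followed the mean of 14 adipocyte markers at r = 0.89 (rho = 0.84, permutation p = 1e-05 and 0.00018, the first being the smallest this test can give; adjusted p = 0.0007 and 0.0126). The correlation was 0.92 within wild type, 0.90 within the knockout and 0.83 without knockout replicate 2 and wild-type replicate 7, which had the lowest adipocyte means. It passed with genotype-centred values, after quantile normalization and with each of the 3 pairs of arrays left out, at 0.88 to 0.92. Of the single markers 13 of 14 correlated positively, led by Lipe, the gene of hormone-sensitive lipase, at 0.87. Fabp4, a fatty acid carrier, was at -0.02.

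Akt2 followed the adipocyte markers as well, at r = 0.76 (rho = 0.77, permutation adjusted p = 0.0210 and 0.0280), with 0.86 for its second probe set (permutation adjusted p = 0.00210) and 0.65 after quantile normalization (permutation adjusted p = 0.0918). Tbc1d4 reached 0.63 and did not pass (permutation adjusted p = 0.146), but did so without wild-type replicate 4 and knockout replicate 2 (0.78, permutation adjusted p = 0.0237). With the same markers Insr was at -0.03 and Irs1 at 0.23 on their brightest probe sets. On their second probe sets Insr was at 0.22 and Irs1 at 0.52, and neither passed (permutation adjusted p = 0.748 and 0.309). Over all 15 arrays the adipocyte marker mean lay between 11.49 and 11.87. Of the 14 adipocyte markers 11 were higher in the knockout, beside 16872 of all 35557 probe sets. In the other lists 12 of 14 macrophage, 1 of 12 endothelial and 9 of 11 progenitor and fibroblast markers were higher. So were 11 of 11 mesothelial, 8 of 10 epididymis and 9 of 12 skeletal muscle markers. No marker of any list passed the threshold. Muscle is the other main tissue that makes GLUT4. The mean of 12 skeletal muscle markers lay between 6.96 and 7.24, and Slc2a4 correlated with it at 0.12 (permutation adjusted p = 0.897). Of these 12 markers 8 were above the log2 level of 6.24 in every array. Singly, 6 of 12 correlated positively with Slc2a4, and r ran from -0.47 to 0.46. The part of muscle in the level of Slc2a4 was not tested.

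Insr, Pik3r1 and Irs1 were low where macrophage markers were high. For Insr r was -0.80 (rho = -0.82, permutation p = 8e-05 and 0.0004, adjusted p = 0.0028 and 0.0140), with -0.73 within wild type and -0.88 within the knockout. For Pik3r1 it was -0.72 (rho = -0.65, permutation adjusted p = 0.0287 and 0.176) and for Irs1 -0.70 (rho = -0.53, permutation adjusted p = 0.0372 and 0.346). All 14 macrophage markers correlated negatively with Insr, from -0.32 for Cd163 to -0.85 for Ctss, the gene of the lysosomal protease cathepsin S. The sign was not particular to macrophages. Insr was at -0.61 with progenitor and fibroblast markers and Pik3r1 at -0.58 with endothelial markers, neither passing (permutation adjusted p = 0.146 and 0.208). With mesothelial and epididymis markers Insr was at 0.24 and 0.28, which did not pass (permutation adjusted p = 0.713 for both).

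The relations with macrophage markers rested in part on the pair of mice with the most macrophage signal. Without these, wild-type replicate 2 and knockout replicate 8, r was -0.66 for Insr, -0.52 for Pik3r1 and -0.45 for Irs1, and none passed (permutation adjusted p = 0.302, 0.485 and 0.527). With second probe sets Insr was at -0.70 (permutation adjusted p = 0.0621) and Irs1 at -0.34 (permutation adjusted p = 0.576). Without knockout replicates 7 and 8 they were -0.73, -0.61 and -0.47 for Insr, Pik3r1 and Irs1, and none passed (permutation adjusted p = 0.0618, 0.317 and 0.490). Irs1 also missed the threshold with genotype-centred values (-0.69, permutation adjusted p = 0.0636), and Pik3r1 without wild-type replicate 4 and knockout replicate 2 (-0.67, permutation adjusted p = 0.0915). After quantile normalization all 3 passed, at -0.90 for Insr, -0.83 for Pik3r1 and -0.76 for Irs1. Akt1 and Ptpn1 had the opposite sign, 0.54 and 0.55, and did not pass (permutation adjusted p = 0.237 for both). The part of macrophages, or of any other cell type, in the levels of these genes was not tested.

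**Figure D3:**
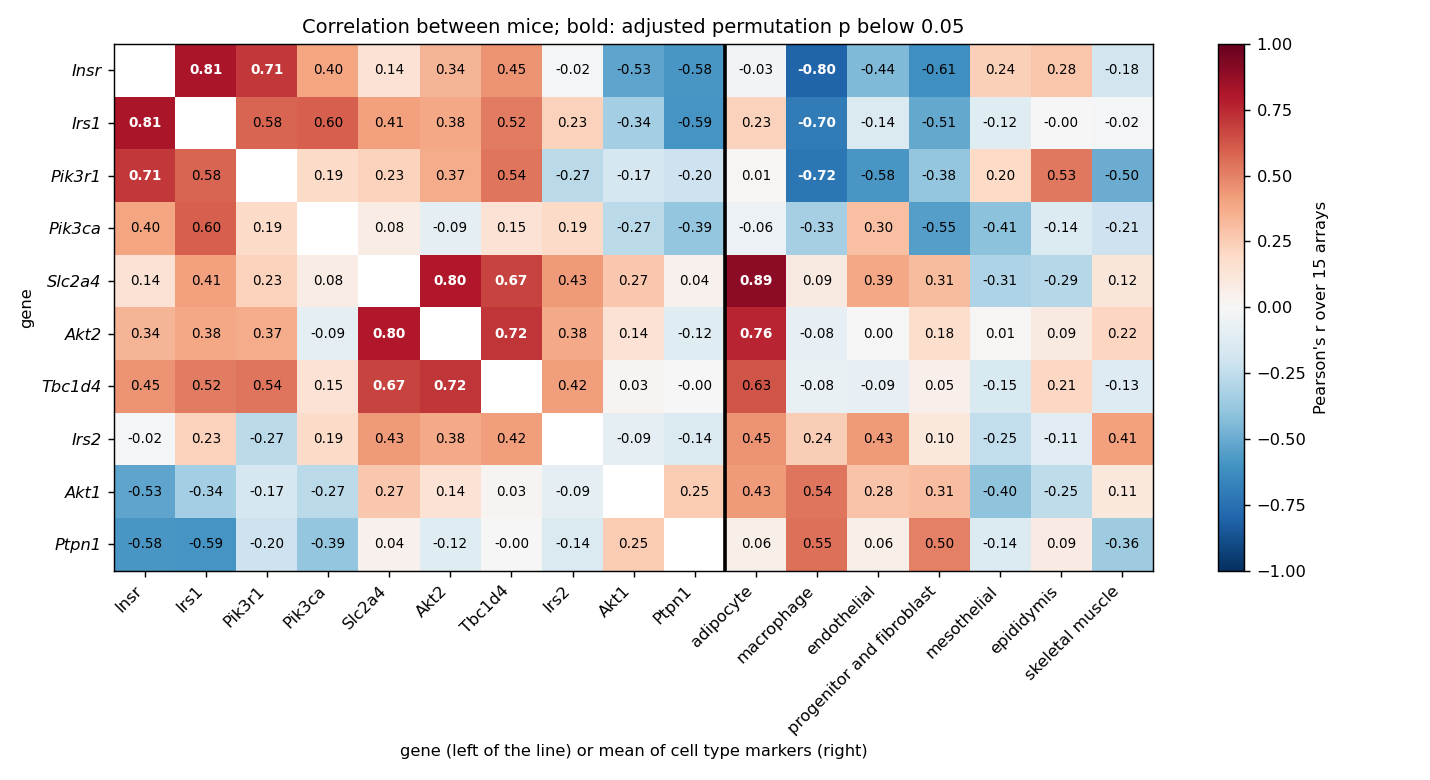
Pearson's r over 15 arrays between the 10 genes (left of the line) and between each gene and the mean of 7 lists of cell type markers (right of the line), bold where the adjusted permutation p is below 0.05. Among the genes Insr with Irs1, at 0.81, and Akt2 with Slc2a4, at 0.80, are warmest, while the macrophage column is coldest for Insr, at -0.80.

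**Figure D4:**
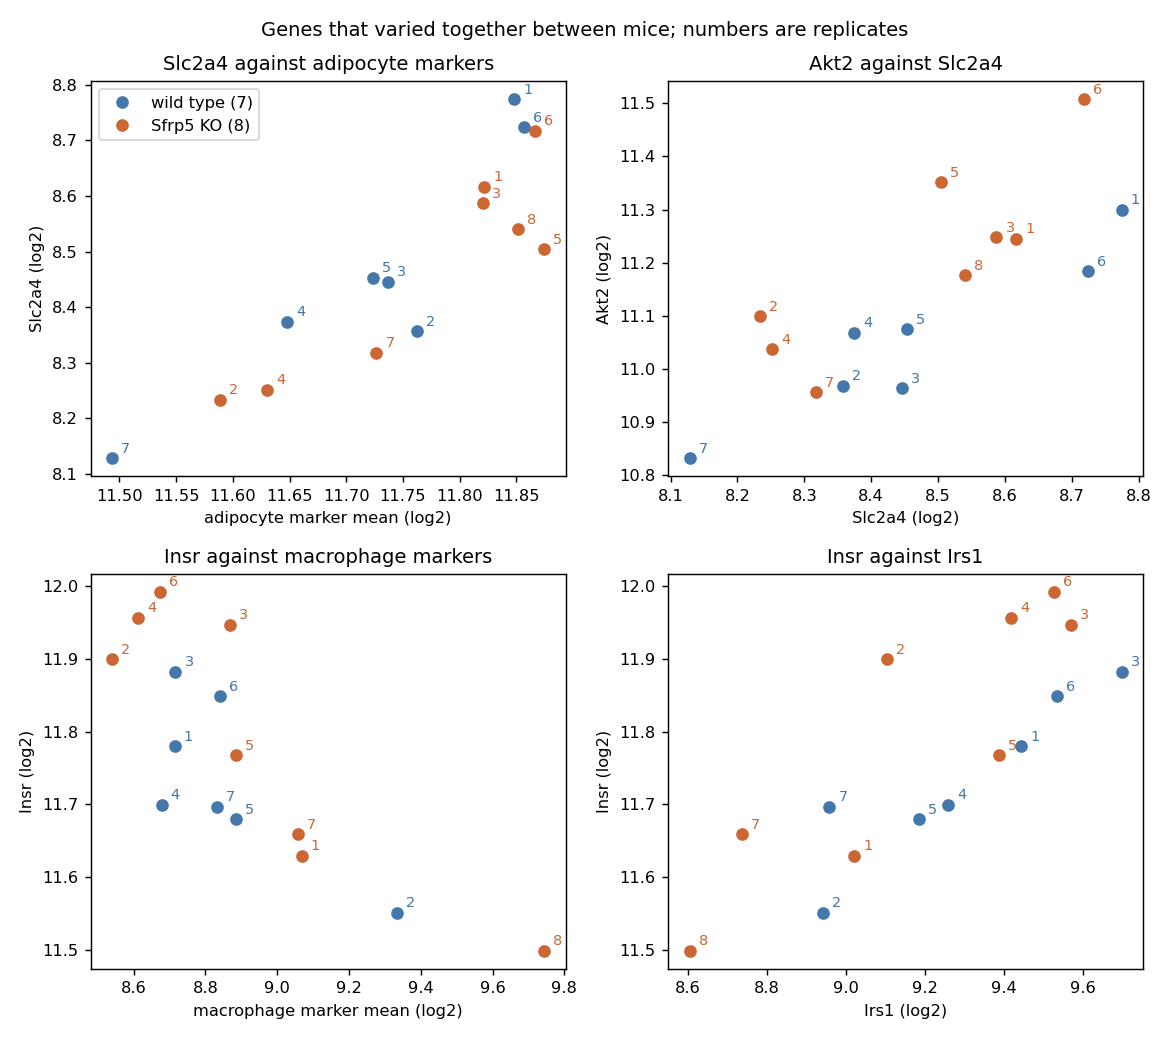
Log2 levels per mouse for 4 pairs: Slc2a4 against the adipocyte marker mean, Akt2 against Slc2a4, Insr against the macrophage marker mean and Insr against Irs1, with wild type in blue, Sfrp5 KO in orange and replicate numbers beside the points. Knockout replicate 8 stands at the far end of the macrophage axis, at 9.74, with the lowest Insr, at 11.50.

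The genes most like each member were found by the correlation of genotype-centred values over the 15 arrays, among all named genes, and are given as a description. For Slc2a4 they were Hspb8, a small heat shock protein (0.92), Slc7a10, an amino acid transporter of adipocytes (0.92), and Steap4, a metalloreductase (0.91). For Akt2 they were Clasp1 (0.90), C330007P06Rik (0.88) and Slc2a4 itself (0.88), and for Tbc1d4 Cog5 (0.88), Satl1 (0.85) and Rab34 (0.85). Insr was closest to Zbtb20, a zinc-finger repressor (0.95), the sodium channel gene Scn7a (0.95) and Sqor, a mitochondrial sulfide oxidase (0.95). Irs1 was closest to Mccc2, an enzyme of leucine breakdown (0.95), the glycogen phosphorylase Pygb (0.94) and Acvr1c, an activin-type receptor of adipocytes (0.94). Pik3r1 was closest to Tes (0.91), Pik3ca to Atp11b (0.92), Irs2 to Lrp12 (0.88), Akt1 to Preb (0.86) and Ptpn1 to Ptpn22, another tyrosine phosphatase (0.86).

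Of 77 other genes of insulin signalling on the lists used, 65 had a probe set of their own, and 0 passed limma's adjusted threshold. Of the 65, 2 had an unadjusted limma p below 0.05, beside the 9.97% of all probe sets and 1333 of the 19938 named genes. By direction 29 were higher and 36 lower in the knockout, with a median log2 difference of -0.0039. Akt1s1, the gene of PRAS40, an AKT substrate that restrains mTORC1, was the one with the lowest p. It ran from 7.55 to 7.85 in wild type (median 7.74) and from 7.62 to 8.07 in the knockout (median 7.93), which differ by 0.19 (SE 0.07; limma adjusted p = 0.396). The ranges overlapped, and 7 of 8 knockouts exceeded the average of wild type.

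Among 14 measured genes of GLUT4 vesicle traffic 7 were higher and 7 lower. Rab10, the Rab GTPase on which TBC1D4 acts in adipocytes, ran from 11.08 to 11.41 in wild type (median 11.24) and from 11.22 to 11.45 in the knockout (median 11.36), which differ by 0.13 (SE 0.06; limma adjusted p = 0.467). Sort1, the gene of the GLUT4 vesicle protein sortilin, differed by -0.13 (SE 0.08; limma adjusted p = 0.631) and Rab8a by 0.08. Of 18 effectors of AKT and mTOR 8 were higher, with Mtor, the kinase itself, at -0.11 (SE 0.06; limma adjusted p = 0.578) and Acly, the ATP citrate lyase that AKT phosphorylates, at 0.16 (SE 0.12).

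Of 10 receptor adaptors 5 were higher, with Shc1 at 0.15, Gab1 at -0.08 and Irs3, an adaptor of rodent adipocytes, at -0.11. Of 5 further kinase genes 2 were higher, with the regulatory subunits Pik3r2 at 0.10 and Pik3r3 at -0.11, and the catalytic subunit Pik3cb at 0.03. For Pik3r2 8 of 8 knockouts exceeded the average of wild type (limma adjusted p = 0.603), but the ranges overlapped. Its lowest knockout, at 7.75, lay below the wild-type median of 7.80, and wild type reached 7.88. Of 13 inhibitors 5 were higher, with the phosphoinositide phosphatase Inpp5k at -0.10 and the tyrosine phosphatases Ptprf and Ptpn2 at 0.14 and -0.09. On the Ras and MAP kinase branch 2 of 5 were higher, with the MAP kinase kinases Map2k2 at 0.13 and Map2k1 at -0.07 and the phosphatase Ptpn11, also called SHP2, at -0.05. No member of these 4 groups passed, and every log2 difference in the 65 genes lay between -0.13 and 0.19.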

How the data were processed

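Gonadal fat of 7 wild-type and 8 Sfrp5 KO mice was measured, 1 array each, grouped by the submitters' titles. The deposited values are log2 expression per probe set, 35557 in all, made by the authors with RMA, per the submitters' processing notes; the tools listed there are affy 1.18, Affymetrix Expression Console 1.1.2800.19935 and limma. RMA brings array distributions close to each other, so a shift common to most genes would be largely removed. The deposited distributions were not identical, with medians from 6.99 to 7.07. Scanner files were not used here. The build and annotation version behind the authors' values are not given in the sources used. No depth applies: the number of arrays limits precision.

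Names come from the platform annotation, with symbols updated through RefSeq genes of GRCm38.p6; 21789 carried 1 symbol, 1621 several and 12147 none, and only the first kind was named. The genotype comparison used lmFit and eBayes of limma 3.58.1 (R 4.3.3), two-sided, with Benjamini-Hochberg adjustment across the 35557 probe sets and a threshold of 0.05. The fit was tested on simulated arrays with noise drawn independently for each probe set. That checks the code and does not show how small a difference could be seen in the real arrays. Correlations used two-sided permutation tests with 100000 resamples, adjusted over 45 or 70 pairs (Python 3.11.15, matplotlib 3.10.9). Genes named are the members, Sfrp5, the 3 with the lowest p in each pathway group, and the 3 most correlated with each member; Irs4, Klf11, Pcbp1, Pyroxd1 and 1700019P21Rik were named after their promoters were seen, and Lipe, Fabp4, Cd163 and Ctss as ends of their marker lists. Members and lists were chosen with earlier results of these data known. Alternatives were normalization, dim probe sets left out, variance model, array weights, replicate block, arrays left out and the probe set of a gene.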

Additional observations from a re-analysis of the deposited data

Results flagged for a closer look

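Of 78 groups of 7 or 8 arrays checked for a value far from its neighbours by Dixon's criterion, 9 held one, where chance gives about 1 in 20. Among the insulin signalling genes Pik3ca was low in wild-type replicate 4 (9.25, the nearest other wild-type array at 9.45) and Tbc1d4 in wild-type replicate 7 (8.11 against 8.38). Of the pathway genes Mtor was low in knockout replicate 2 (8.10 against 8.32) and Map2k2 high in knockout replicate 8 (8.14 against 7.86). The other 5 were marker means: macrophage in wild-type replicate 2 (9.33) and knockout replicate 8 (9.74), endothelial in wild-type replicate 4 (8.85), and epididymis in wild-type replicate 4 (7.93) and knockout replicate 2 (10.34).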

How the results depend on the processing

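None of the 10 genes and none of the 65 other pathway genes passed limma's adjusted threshold in any of the 25 other settings, those with 1 array left out included. Direction turned for Insr after quantile normalization (-0.0060), for Slc2a4 with median centring (-0.0020), array weights (-0.0016) and the replicate number as a block (-0.0041), for Akt1 (0.0058) and Ptpn1 (0.0256) when wild-type replicate 4 and knockout replicate 2 were dropped, and for Irs1 (0.0491) without knockout replicates 7 and 8. With these as the only knockout arrays the differences turned to -0.16 for Insr, -0.19 for Pik3r1, 0.14 for Akt1, -0.0370 for Tbc1d4, -0.0360 for Slc2a4, 0.38 for Ptpn1 and -0.21 for Pik3cb. With 1 array left out, differences ranged from -0.0502 to 0.0573 for Slc2a4, -0.0528 to 0.0399 for Akt1, -0.0921 to 0.0587 for Ptpn1, -0.0813 to 0.0221 for Irs2 and -0.0131 to 0.0661 for Pik3cb; the cause was not tested. The count of 12 called probe sets was 6 with quantile normalization, 7 with median centring and 26 without dim probe sets. It was 48 with an intensity trend and a robust prior together, and 25 with array weights. Without knockout replicates 7 and 8 it was 2, and with these as the only knockout arrays 0. With 1 array left out it was 0 to 133, the highest without knockout replicate 1. It was 0 with the replicate block, and 0 when wild-type replicate 4 and knockout replicate 2 were dropped. Sfrp5 differed by -1.28 (adjusted p = 0.300) with the replicate block, -1.17 (0.119) when that wild-type and that knockout array were dropped, -0.93 (0.316) with knockout replicates 7 and 8 alone, and -1.29 to -1.13 with 1 array left out. Deviations from the genotype mean correlated at -0.117 to 0.248 between mice of equal replicate number. Unequal numbers were not set beside these, so whether the numbers pair the mice cannot be told. The replicate block changed no call of the 10 genes. Among the genes 5 pairs passed in the values reported, 2 with genotype-centred values and 2 with quantile normalization. With second probe sets 2 passed, Akt2 with Slc2a4 and Irs1 with Slc2a4, the latter not among the 5. There were 6 without wild-type replicate 4 and knockout replicate 2. The count was 0 without knockout replicates 7 and 8, and 0 when knockout replicate 8 and wild-type replicate 2 were dropped. Of pairs with markers, 5 in the values reported, 2 passed without either of those pairs of arrays and 3 with second probe sets. Leaving out these 2 pairs of arrays and using second probe sets were choices made after seeing the data. RMA values give no signal over background, so detection of dim genes could not be judged.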

Other observations

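The second Irs1 probe set, whose neighbours in number lie mainly on the strand of Irs1, correlated with Slc2a4 at 0.73 (permutation adjusted p = 0.0470), where the brightest Irs1 probe set gave 0.41 (permutation adjusted p = 0.356).

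Leptin, Lep, was the adipocyte marker with the most negative correlation with Insr (-0.65), Irs1 (-0.36) and Pik3r1 (-0.53). Resistin, Retn, was the one with the most positive with Insr (0.72) and Irs1 (0.77). Both were read over 15 arrays on the brightest probe sets, as ends of a list and with no test. Of the 14 adipocyte markers 9 correlated positively with Insr, 10 with Irs1 and 10 with Pik3r1. The medians over the 14 were 0.27, 0.21 and 0.15.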
